A study of Mus musculus with 12 samples.

Results

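The nuclear genes of the mitochondrial respiratory chain were taken by symbol alone. The symbols were matched without any measured value, though this set was chosen with earlier results of these data known. They were the protein-coding genes named Nduf with a, b, c, s or v and a number (complex I), Sdha to Sdhd (complex II), Uqcr (complex III), Cox4 to Cox8 with a, b or c (complex IV) and Atp5 (complex V, the ATP synthase). This gave 84 of the 45777 genes listed, with 39 in complex I, 4 in complex II, 8 in complex III, 16 in complex IV and 17 in complex V. A further 11 symbols matched but did not belong to protein-coding genes and were left out. The rule misses Cox4i1, Cyc1 and Ndufab1, which are subunits under other symbols. It also places Ndufa4 in complex I although it is now regarded as a subunit of complex IV, and it takes in Cox7a2l, which helps complexes assemble into supercomplexes.

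The RNA came from CD4+ T cells of the spleen of wild type C57BL/6 mice, labelled as 7 weeks old. In all groups the cells were kept for 3 days with anti-CD3 (0.5 µg/ml), an antibody that triggers the T cell receptor. The 4 groups were Control (anti-CD3 and no drug), Metformin (a biguanide known to inhibit complex I), FK506 (tacrolimus, which inhibits the phosphatase calcineurin) and Metformin+FK506 (both drugs together), with 3 samples in each. The drug doses of these cultures are not given in the sources used here, and the methods of the study list soluble anti-CD28 as well and give older mice than the labels do. Total counts ran from 43402632 to 64290105 per sample. No label says that samples of a group came from separate mice or cultures, so the p-values measure the spread between these samples, which may be technical.

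Complex I takes electrons from NADH and complex II takes them from succinate, and both pass them to coenzyme Q. Complex III hands them on to cytochrome c, and complex IV gives them to oxygen. Complexes I, III and IV pump protons across the inner membrane, and the ATP synthase uses the return of these protons to make ATP. Complex II is encoded wholly in the nucleus, while the other complexes also hold subunits of the mitochondrial genome, which are not among these genes. Activated T cells are known to build up mitochondria as they start to grow and divide.

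Promoters of respiratory chain genes are known for sites of nuclear respiratory factor 1 (NRF1), GABPA, YY1, ESRRA and MYC. RefSeq windows of GRCm38.p6, from 250 bases before to 50 bases after an annotated start, were found for 69 of the 84 genes. There were 74 windows, and they were searched on both strands. The start used was not always the outer end of the gene, as in Atp5g3. The NRF1 letters GCGCANGCG were in 20 of the 69 genes (29.0%), against 14.5% of all genes tested that had a window and 7.0% of all genes with one. The YY1 letters AAGATGGCG were in 7 genes (10.1%, against 3.5% of genes tested), and in 6 of these they lay after the start. The letters CCGGAAGT of GABPA were in 7.2% (against 8.8%) and CACGTG of MYC in 8.7% (against 11.5%). The letters TCAAGGTCA of ESRRA were in only 2 genes (2.9%, against 0.3%). Over the 67 genes with a window that were tested, the shares were 29.9% (NRF1), 10.4% (YY1), 7.5% (GABPA), 9.0% (MYC) and 3.0% (ESRRA). By complex, the NRF1 letters were in 7 of 15 genes of complex V, 8 of 33 of complex I, 2 of 5 of complex III, 2 of 3 of complex II and 1 of 13 of complex IV. A match of letters is a description and not a site of binding.

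The stretches below belong to genes whose levels are described later. They include the paralogs of ATP synthase subunit c, which differed in how far they fell with FK506, and Sdha, which rose. The others are Ndufa6, which moved in opposite directions with the 2 drugs, and Cox6a1. Of the 13 genes of complex IV with a window, only Cox6a1 had the NRF1 letters. All are on the minus strand and are written 5′ to 3′, with the motif letters in capitals; where the match is on the other strand the capitals are the reverse complement. The positions are chr11:96075660-96075685 for Atp5g1, chr15:102671070-102671099 for Atp5g2, chr2:73911295-73911323, chr2:73911360-73911388 and chr2:73911549-73911574 for Atp5g3 (NRF1, ESRRA and MYC letters), chr13:74350320-74350348, chr13:74350277-74350305 and chr13:74350232-74350260 for Sdha, chr15:82354249-82354277 for Ndufa6 and chr5:115349101-115349130 and chr5:115349057-115349085 for Cox6a1. These are all the matches in the windows of these genes to the letters of NRF1, ESRRA and MYC.
Atp5g1 (MYC letters): ggactccgaaCACGTGggtgggggag
Atp5g2 (NRF1 letters, overlapping on both strands): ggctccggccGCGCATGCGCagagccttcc
Atp5g3 (NRF1 letters): agccgcaccgCGCTTGCGCgcccagcccc
Atp5g3 (ESRRA letters): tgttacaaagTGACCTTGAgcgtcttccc
Atp5g3 (MYC letters): ccctgcctggCACGTGcaaggagcga
Sdha (NRF1 letters, match 1): cgtttacaggGCGCAGGCGcaccaccact
Sdha (NRF1 letters, match 2): ggggcgtgttGCGCAGGCGcagaatcttc
Sdha (NRF1 letters, match 3): gcgactcggtGCGCAAGCGcagtctgtcg
Ndufa6 (NRF1 letters): cgtggcaccgCGCGTGCGCacgctgaagg
Cox6a1 (NRF1 letters, overlapping on both strands): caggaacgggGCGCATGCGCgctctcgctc
Cox6a1 (NRF1 letters, match 2): cggataaagtGCGCAGGCGctggagttcc

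In Control cells the level per transcript length (FPKM) rose from complex I to complex V. The median of the mean FPKM was 50.2 in complex I, 57.1 in complex II, 81.3 in complex III, 130 in complex IV and 145 in complex V, over the genes tested. Atp5b, the catalytic beta subunit of the ATP synthase, had the highest level at 528 ± 7.1 (SD, n = 3). The 4 subunits of complex II lay close together, from 47.8 for Sdhc to 82.1 for Sdhb. Complex IV ranged from 1.78 for Cox6a2 to 226 for Cox7c. Cox7b2, Cox8b and Cox8c had no count in any sample, and Ndufa4l2 had none in Control and at most 24 counts in any sample, so these 4 genes were not tested. The other 80 passed the filter on low values (FPKM no lower than 0.5 in 3 or more samples).

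Summed over the 84 genes, FPKM was highest in Control (7277 ± 86.4) and lower with metformin (6771 ± 178), FK506 (5171 ± 203) and both drugs (4927 ± 165; SD, n = 3). After quantile normalization the sum was not lower with metformin (6903 ± 108) than in Control (6786 ± 59.3), nor with both drugs (5152 ± 144) than with FK506 (5121 ± 135). The deposited FPKM sum was 1.52% ± 0.0114, 1.36% ± 0.0196, 1.27% ± 0.0301 and 1.24% ± 0.0231 of all FPKM of the sample in Control, Metformin, FK506 and Metformin+FK506. In complex V the sum was 2847, 2895 and 2781 in the Control samples, 2507, 2596 and 2423 with metformin, 1988, 1868 and 1848 with FK506, and 1757, 1745 and 1883 with both. On FPKM no sample of either FK506 group reached a sample without FK506 in complexes I, III, IV and V. On TPM, however, the FK506 samples of complex I (3738, 3612 and 3532) overlapped the Metformin samples (3636, 3705 and 3582). The samples with both drugs (3516, 3567 and 3625) overlapped them as well. Complex II stood apart, with a mean of 244 ± 2.84 for Control cells, 237 ± 2.96 for Metformin, 230.2 ± 8.29 for FK506 and 221 ± 6.87 for the combination, and its FK506 samples overlapped the Metformin samples. The log2 ratio of FK506 to Control was −0.40 for complex I, −0.08 for complex II, −0.49 for complex III, −0.54 for complex IV and −0.58 for complex V. On TPM, which sets every sample to the same total, these became −0.16, 0.15, −0.25, −0.30 and −0.34, so that complex II was then higher. A sum over genes was given no test.

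**Figure D1:**
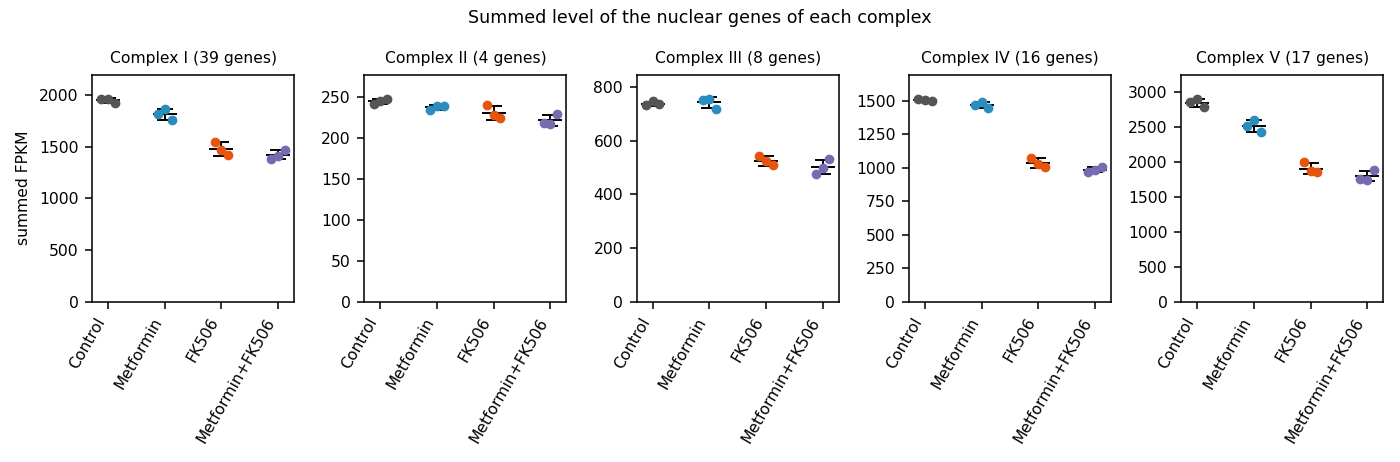
Summed FPKM (y axis, from 0) of the nuclear genes of complexes I to V in the 12 samples. Coloured points are samples, the dash is the mean and the bars are 1 SD (n = 3); complexes I, III, IV and V were lower in both FK506 groups, and complex II moved least, from 244 in Control to 221 with both drugs.

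Differences between groups were tested gene by gene with edgeR's quasi-likelihood test on the counts of all 15197 genes that passed the filter, with Benjamini-Hochberg adjusted p under 0.05 as the threshold. Values per sample below are CPM, each sample's counts over its TMM-scaled total (scaled CPM), the scale on which the log2 fold changes were fitted. With FK506, 72 of the 80 genes were lower than in Control, against 39.6% of all genes tested, and 2 were higher, against 41.3%. The median log2 fold change was −0.62, beside 0.024 over all genes. All 8 genes of complex III, all 13 tested of complex IV and all 17 of complex V were lower, with medians of −0.78, −0.88 and −0.68. Complex I had 31 of 38 lower and 1 higher (median −0.57), and complex II had 3 of 4 lower and 1 higher (median −0.37). The 6 genes that did not pass were all of complex I: Ndufa1, Ndufa4, Ndufa10, Ndufa11, Ndufb7 and Ndufb10, with log2 fold changes from −0.19 to −0.05.

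How many genes fell differed between settings. TMM placed the median of all genes near 0, whereas library size alone moved it to 0.247 and TPM to 0.422 in this comparison. With limma on TPM, where value, scale and test all differ, 45 genes were lower and 14 higher, beside 24.0% and 59.4% of all genes under that setting. With library size alone, which changes only the scale, 64 were lower and 5 higher, beside 31.1% and 51.0%. The median of these genes relative to that of all genes was −0.647 with TMM, −0.647 with library size alone, −0.623 with TPM and −0.377 with quantile normalization. On TPM 8 of the genes described below as lower were above 0, between 0.01 and 0.30: Ndufs3, Ndufs8, Ndufv1, Sdhc, Sdhd, Uqcrc1, Cox6b1 and Atp5g3. The falls are therefore stated relative to the rest of the transcripts.

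**Figure D2:**
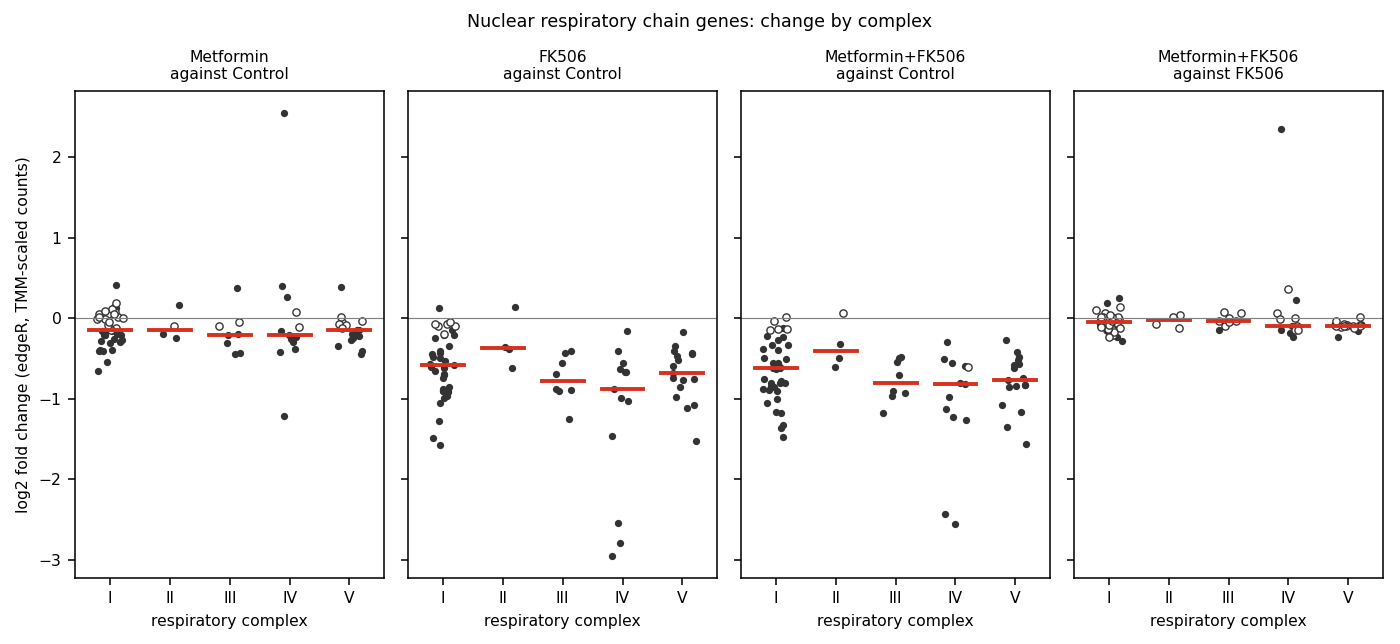
Log2 fold change (y axis) of the 80 genes tested, by complex (x axis), in 4 comparisons. Each point is a gene, filled where adjusted p was under 0.05, and red lines are medians; with FK506 the medians were −0.57, −0.37, −0.78, −0.88 and −0.68 for complexes I to V, and with both drugs against FK506 most points are open and near 0.

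The core subunits of complex I carry its flavin and iron-sulfur clusters and do the electron transfer, while the accessory subunits surround them. The 7 nuclear core genes had a median of −0.35 with FK506 and the 31 accessory genes tested had −0.62. Ndufv2, a core subunit with an iron-sulfur cluster, had 94.5, 94.4 and 94.3 scaled CPM in Control and 63.9, 59.8 and 57.1 with FK506. The groups did not overlap, and the log2 fold change was −0.65 ± 0.0507 (SE, adjusted p = 4.38e-09). Ndufs7, which lies by the coenzyme Q pocket, fell by 0.35, and Ndufs3 by 0.41, though it was 0.05 on TPM. Ndufs8 fell by 0.21 and Ndufv1, which binds NADH, by 0.15, but with library size alone they were 0.02 and 0.07. Ndufs1, which carries several iron-sulfur clusters, was 0.13 higher (adjusted p = 0.0201), with 84.8, 76.5 and 77.8 against 70.4, 76.1 and 71.4, groups that nearly touch. That call was lost without Control replicate 1, Control replicate 3 or FK506 replicate 1, which left 1 gene higher, Sdha.

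Among accessory subunits the fall was widest in Ndufv3 (GRCm38.p6, chr17:31520115-31531326), a small subunit of the NADH-binding module. It had 98.3, 96.8 and 94.6 scaled CPM in Control, 60.7, 62.8 and 61.3 with metformin, 32.1, 33.3 and 31.7 with FK506, and 38.0, 39.1 and 38.3 with both. The 4 groups were fully apart. The change with FK506 was −1.58 ± 0.0397 (adjusted p = 1.54e-15). Ndufc2 (chr7:97400003-97407800), a membrane subunit, fell by 1.49 with FK506 and by 1.48 with both drugs, from 63.2, 62.4 and 63.6 to 23.2, 23.2 and 20.7, and to 19.9, 25.1 and 23.0. Ndufb11, another membrane subunit, fell by 1.05. Ndufb4b and Ndufb4c are copies of Ndufb4, and how shared reads were divided among them is not stated, so their values are uncertain.

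**Figure D3:**
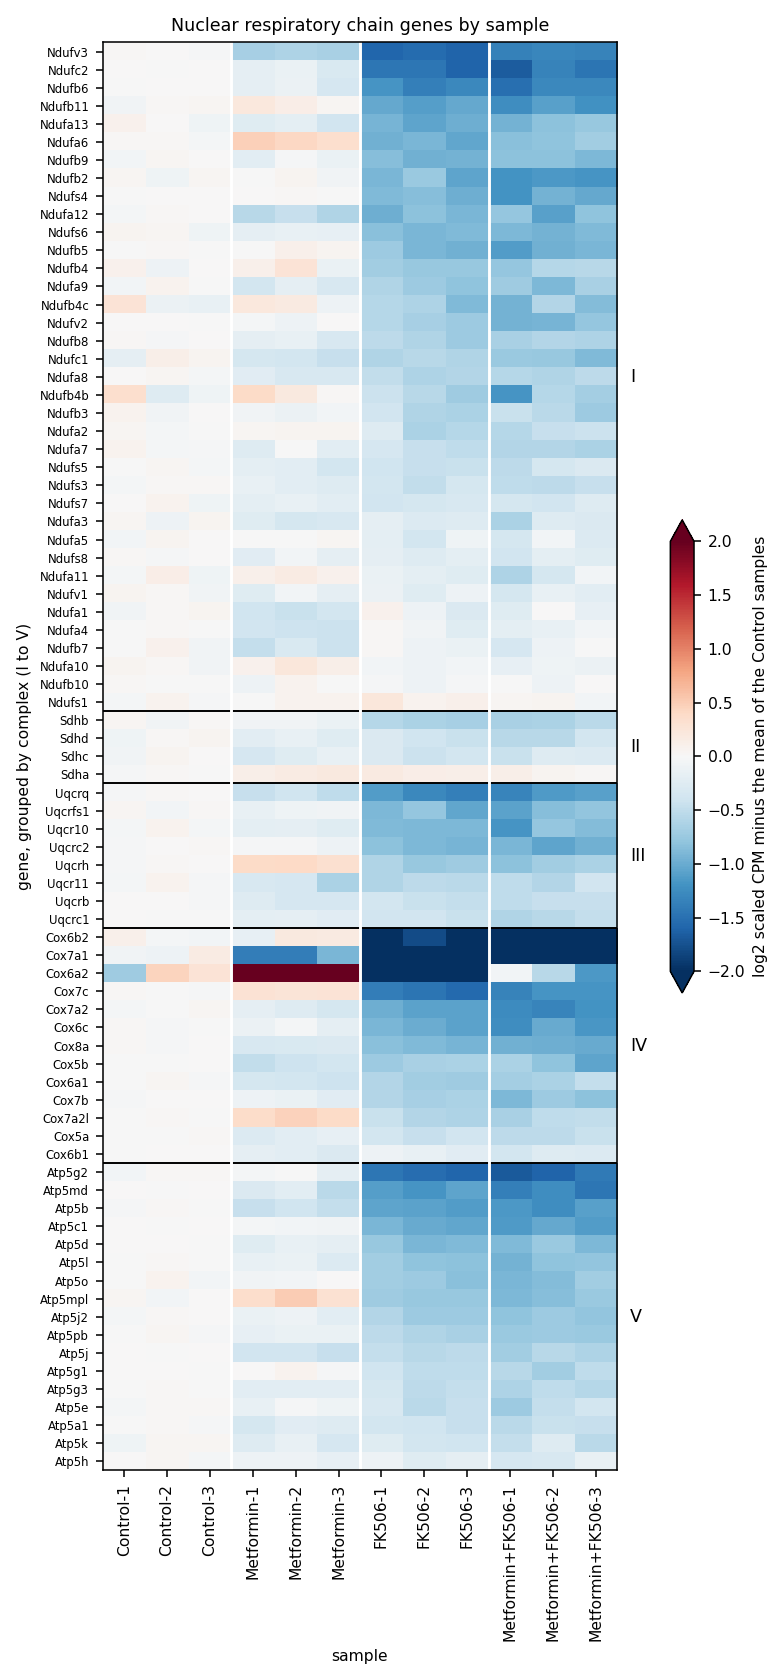
Log2 scaled CPM minus the mean of the Control samples (colour) of 79 of the 80 genes tested (rows, grouped by complex and ordered by their change with FK506) in the 12 samples (columns). Blue is lower than Control and red is higher; both FK506 groups are blue in most rows, Sdha and Ndufs1 are pale red with FK506, and Cox6a2 is reddest with metformin alone.

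In complex II, Sdha (chr13:74322255-74350240), the flavin subunit that oxidizes succinate, went the other way from its partners. It had 199, 204 and 201 scaled CPM in Control, 218, 226 and 230.4 with metformin, 227, 219.7 and 218 with FK506, and 219, 209 and 204 with both. Both single-drug groups lay above Control, by 0.16 ± 0.0361 with metformin (adjusted p = 0.00143) and by 0.14 ± 0.036 with FK506 (adjusted p = 0.0025). With both drugs the difference was 0.06 ± 0.0361 (adjusted p = 0.108), and the interaction was −0.23 ± 0.0509 (adjusted p = 0.00154). Sdhb, the iron-sulfur subunit, fell by 0.62 with FK506, from 107, 99.1 and 106 to 69.9, 67.2 and 65.8. The membrane anchors Sdhc and Sdhd fell by 0.36 and 0.38, but were 0.09 and 0.08 on TPM.

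In complex III the core subunits Uqcrc1 and Uqcrc2 changed with FK506 by −0.41 ± 0.0372 (0.04 on TPM) and −0.88 ± 0.0422. Uqcrc1 had 159.5, 158 and 158 in Control and 121, 121 and 116 with FK506, and Uqcrc2 had 219, 222 and 225 against 126, 119 and 116. Uqcrfs1, the Rieske iron-sulfur protein, fell by 0.90. The widest fall was in Uqcrq (chr11:53427922-53430831), a small subunit, with 76.1, 78.6 and 78.4 in Control and 35.7, 31.9 and 30.1 with FK506 (−1.25 ± 0.0657, adjusted p = 2.24e-11). Uqcrq overlaps Gdf9 in the annotation. In total 28 of the 84 genes overlap another annotated gene, among them Ndufv2, Ndufb11, Uqcrc2, Uqcrh, Cox7a2, Atp5d and Ndufa1. Whether the counting used strand is not stated, and the part of these overlaps in the counts was not tested.

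In complex IV and complex V several subunits have more than 1 gene. Atp5g1, Atp5g2 and Atp5g3 encode the same mature subunit c, the ring that turns as protons pass. Atp5g2 (chr15:102662868-102671047) had 218, 229.7 and 230.1 scaled CPM in Control, 220.3, 224 and 199.8 with metformin, 82.9, 78.4 and 74.9 with FK506, and 70.5, 74.5 and 84.4 with both. It was the widest fall in complex V (−1.52 ± 0.0612 with FK506, adjusted p = 6.76e-13). Atp5g1 went from 61.6, 61.3 and 60.9 to 46.5, 43.0 and 43.2 with FK506 (−0.47 ± 0.0511), and Atp5g3 from 123, 125 and 122 to 96.4, 85.6 and 88.7 (−0.45 ± 0.0437). All 3 fell, Atp5g2 furthest, but on TPM Atp5g3 was at 0.01. As a share of the FPKM of the 3 genes, a ratio within each sample, Atp5g2 made up 58.5% ± 0.805 for Control, 59.7% ± 1.19 for Metformin, 40.1% ± 0.744 for FK506 and 41.0% ± 2.09 for the combination. Atp5g3 rose in share from 28.5% ± 0.61 to 41.3% ± 0.727 and Atp5g1 from 13.0% ± 0.234 to 18.6% ± 0.332 with FK506, with no overlap between the samples.

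**Figure D4:**
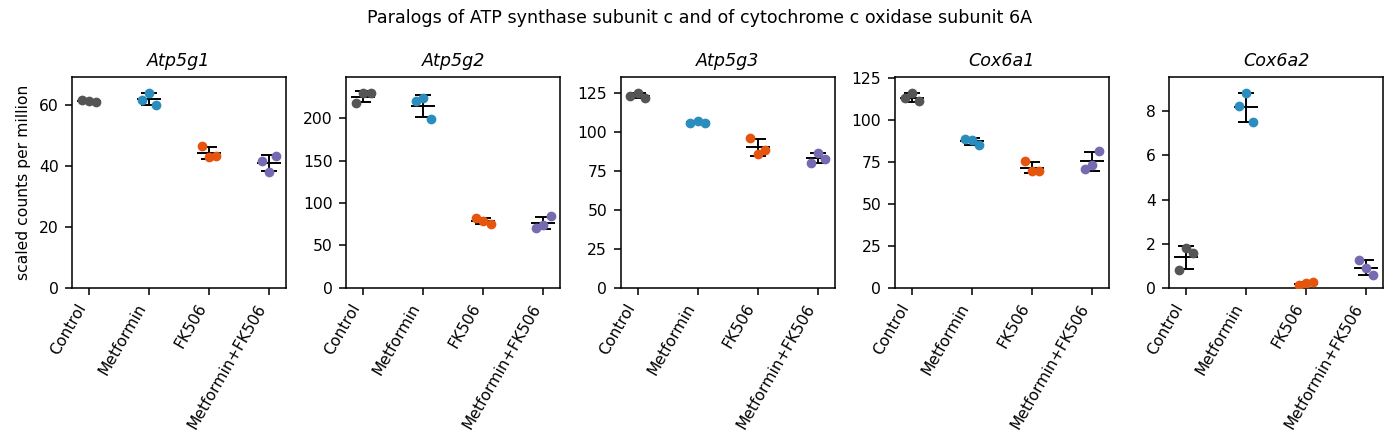
Scaled CPM (y axes, from 0, each with its own range) of the subunit c genes Atp5g1, Atp5g2 and Atp5g3 and of Cox6a1 and Cox6a2 in the 4 groups. Points are samples, the dash is the mean and bars are 1 SD (n = 3); Atp5g2 fell with FK506 by 1.52 on the log2 scale, more than Atp5g1 (0.47) and Atp5g3 (0.45), and Cox6a2 was highest with metformin alone.

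Cox6a2 (chr7:128205435-128206366), the form of subunit 6A best known from heart and skeletal muscle, was low, and had the largest change of the 80 genes with metformin alone and with FK506 alone. It had 0.798, 1.79 and 1.58 scaled CPM in Control, 8.22, 8.83 and 7.52 with metformin, 0.118, 0.19 and 0.244 with FK506, and 1.27, 0.889 and 0.585 with both. Metformin raised it without FK506 (2.55 ± 0.28, adjusted p = 9.32e-07) and with it (2.35 ± 0.384, adjusted p = 0.000213), and the interaction was −0.20 ± 0.527 (adjusted p = 0.787). FK506 lowered it (−2.95 ± 0.373, adjusted p = 1.79e-06). With both drugs it overlapped Control (−0.60 ± 0.301, adjusted p = 0.0762). Its share of the FPKM of Cox6a1 and Cox6a2 was 1.03% ± 0.386, 7.46% ± 0.44, 0.211% ± 0.0865 and 1.04% ± 0.445 in the order of groups above. Cox6a2 overlaps Itgad, a myeloid integrin gene, which had no count in Control or Metformin and 103 to 345 counts in the FK506 groups, and whose part in the values of Cox6a2 was not tested. Cox6a1, the general form, fell by 0.38 with metformin and by 0.67 with FK506.

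Other low paralogs had larger falls than the general form, though the difference between paralogs was not tested. Cox6b2, known from testis, had 2.08, 1.89 and 1.86 in Control and 0.324, 0.553 and 0.0814 with FK506 (−2.55 ± 0.387, adjusted p = 1.4e-05), against −0.16 ± 0.0443 for Cox6b1, which was 0.07 with library size alone. Cox7a1, the form known from heart and muscle, had 1.35, 1.32 and 1.58 in Control, 0.533, 0.537 and 0.745 with metformin, 0.295, 0.142 and 0.163 with FK506, and 0.257, 0.248 and 0.282 with both. It fell with each drug, by 1.22 with metformin and by 2.79 with FK506. Cox7a2, the general form, fell by 1.03 with FK506, and Cox7a2l by 0.55. Cox7c, a small subunit, fell from 121, 119 and 118 to 46.0, 43.3 and 40.7 (−1.46 ± 0.0503). Cox8a fell by 0.88, and Cox7b by 0.63. The counts behind Cox6a2, Cox6b2 and Cox7a1 were as low as 8, 4 and 8 in 1 sample.

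Atp5b fell from 1149, 1182 and 1161 scaled CPM in Control to 846, 885 and 833 with metformin, 562, 556 and 536 with FK506, and 526, 493 and 549.6 with both. The log2 fold changes were −0.45 ± 0.0405 with metformin (adjusted p = 1.02e-07), −1.08 ± 0.041 with FK506 and −1.16 ± 0.0411 with both. Each drug group lay below Control, and the samples with both drugs overlapped those with FK506 alone. For Atp5d, the delta subunit, the FPKM changed by −0.59 with metformin where the counts changed by −0.19, so its levels depended on which deposited value was used. Ndufv3 with metformin was −0.65 by counts and −0.91 by FPKM, and Ndufs7 for both drugs against FK506 was 0.02 by counts and 0.17 by FPKM.

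Metformin alone moved the genes less, and in both directions. Against Control, 44 of 80 were lower, beside 27.4% of all genes tested, and 9 were higher, beside 28.6%. The median was −0.16, beside 0.011 over all genes, and with quantile normalization 17 were lower, beside 23.1% of all genes under that setting, and 14 higher, beside 28.4%. The share of lower genes was then about that of all genes. By complex the medians were −0.15 for complex I, −0.14 for complex II, −0.20 for complex III, −0.21 for complex IV and −0.15 for complex V. Of the 7 core genes of complex I, Ndufs3, Ndufs7, Ndufs8 and Ndufv1 were lower, by 0.15 to 0.21, while Ndufs1 and Ndufv2 did not pass, with values of 0.05 and −0.05.

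The 9 genes higher with metformin were Cox6a2, Ndufa6, Cox7a2l, Atp5mpl, Uqcrh, Cox7c, Sdha, Ndufa10 and Ndufb11. Ndufa6, an accessory subunit, had 73.4, 73.4 and 70.6 scaled CPM in Control, 101, 96.4 and 91.8 with metformin, 37.1, 38.6 and 35.2 with FK506, and 40.6, 41.3 and 44.7 with both. It was above Control with metformin (0.41 ± 0.0495, adjusted p = 2.64e-06) and below it with FK506 (−0.97 ± 0.0511). Uqcrh, the hinge protein of complex III, had 137, 142 and 141 in Control, 183, 185 and 174 with metformin and 92.5, 83.2 and 85.3 with FK506. Cox7a2l rose from 243, 248 and 243 to 316, 336 and 319 with metformin (0.40 ± 0.0471), and Atp5mpl, a small subunit of the ATP synthase, by 0.39 ± 0.0585. Metformin lowered Ndufv3 by 0.65, Sdhc by 0.24, Uqcrq by 0.45, Cox7a1 by 1.22 and Atp5b by 0.45, the widest falls of their complexes.

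With both drugs, 73 of 80 genes were lower than in Control, beside 39.6% of all genes, and 0 were higher, beside 42.1%, by edgeR. DESeq2, library size alone and TPM with limma gave 0, 3 and 12 higher, beside 42.3%, 51.1% and 59.4% of all genes, and none of the 80 was higher at an unadjusted p under 0.05 by edgeR. On TPM 49 were lower, beside 24.3% of all genes under that setting. The median was −0.67, beside 0.033 over all genes. The 7 that did not pass were Ndufa1, Ndufa4, Ndufb7, Ndufb10, Ndufs1, Sdha and Cox6a2. The widest falls were Ndufc2 (−1.48), Sdhb (−0.60), Uqcrq (−1.18), Cox6b2 (−2.56 ± 0.391) and Atp5g2 (−1.56). Of the 80 genes, 41 were lower in all 3 drug groups than in Control, beside 17.4% of all genes. Another 24 were lower in both FK506 groups without passing for metformin alone, beside 12.8%, and 6 were lower in both and higher with metformin alone, beside 6.23%. These comparisons share the Control samples.

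Metformin added to FK506 changed few of these genes. Against FK506 alone, 4 of 80 were higher, beside 15.6% of all genes, and 10 were lower, beside 15.0%, with a median of −0.08 beside 0.002. The 4 higher were Cox6a2, Ndufv3 (0.25 ± 0.0401, adjusted p = 0.000187), Cox7c (0.23 ± 0.0508) and Ndufa6 (0.19 ± 0.0516). The lower ones included Ndufb2 (−0.28 ± 0.0895), Ndufv2 (−0.23 ± 0.0514), Cox7a2 (−0.23 ± 0.053), Atp5md (−0.23 ± 0.0747) and Uqcrc1 (−0.14 ± 0.0374). The count of lower genes was 6 without FK506 replicate 1, beside 12.6% of all genes in that fit, and 16 without Metformin+FK506 replicate 2 or replicate 3, beside 16.5% and 15.6%.

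FK506 added to metformin lowered 67 of 80 genes, beside 37.9% of all genes, and raised 3, beside 40.3%, with a median of −0.58 beside 0.025. With TPM 39 were lower and 28 higher, beside 20.3% and 62.4% of all genes under that setting. The 3 raised were Ndufa1, a membrane subunit, Ndufb7 and Ndufa4, by 0.27, 0.26 and 0.28. Ndufa4 had 54.4, 55.9 and 54.3 scaled CPM in Control, 42.2, 41.3 and 40.8 with metformin, 55.9, 52.4 and 46.5 with FK506, and 48.0, 49.7 and 52.8 with both. It was lower than Control with metformin alone (−0.41 ± 0.0592) and overlapped Control with FK506 alone, while the samples with both drugs lay below Control without passing (−0.13 ± 0.0585, adjusted p = 0.0508). The widest falls were Ndufb11 (−1.30), Sdhb (−0.51), Uqcrh (−1.08), Cox6a2 (−3.15 ± 0.29) and Atp5g2 (−1.49).

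The interaction asks whether metformin changed a gene by the same amount with FK506 as without it. It was higher in 22 of 80 genes (27.5%), beside 22.5% of all genes, and lower in 9 (11.2%), beside 24.0%. The median was 0.08 beside −0.02. With quantile normalization 12 were higher and 16 lower, beside 21.5% and 24.1% of all genes under that setting, with a median of −0.012. All 22 higher ones were lower with metformin without FK506, as were 85.1% of all genes with a higher interaction, a direction that the definition of the interaction favours. Of the 22, Cox8a was also lower with metformin in the presence of FK506, beside 9.87% of all such genes. Ndufv3 had the clearest value (0.90 ± 0.0556, adjusted p = 1.67e-09), since metformin changed it by −0.65 without FK506 and by 0.25 with it. Cox7a1 (1.58 ± 0.455), Ndufa12 (0.55 ± 0.106), Uqcrq (0.53 ± 0.0925), Cox6a1 (0.45 ± 0.0709), Atp5b (0.37 ± 0.0574) and Sdhc (0.28 ± 0.0873) were among the others. The lower ones included Atp5mpl (−0.48 ± 0.0845), Cox7a2l (−0.40 ± 0.0669), Uqcrh (−0.39 ± 0.0702), Ndufb11 (−0.25 ± 0.0743) and Sdha (−0.23 ± 0.0509), which rose with metformin only without FK506. The comparisons of metformin without and with FK506 share no sample. Over the 79 genes other than Cox6a2, their log2 fold changes had Pearson's r of −0.23 and Spearman's rho of −0.12 across genes, and a spread (SD) of 0.25 without FK506 and 0.11 with it. Genes are not independent replicates, and with Cox6a2 the r was 0.66 and the rho −0.08.

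**Figure D5:**
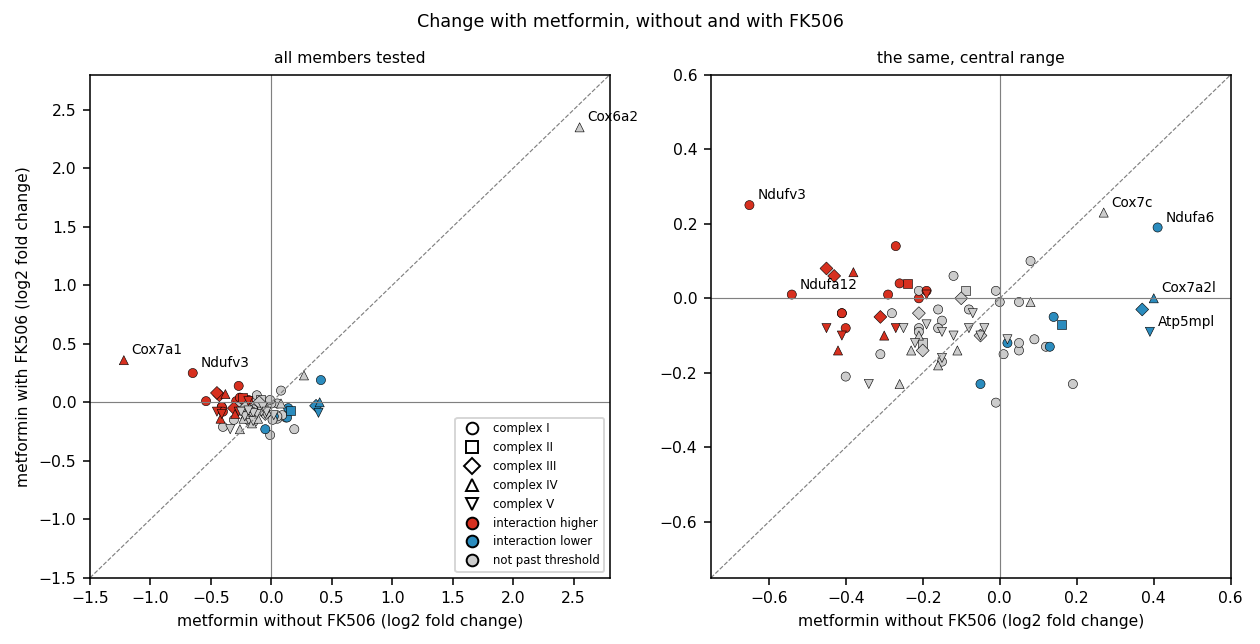
Log2 fold change with metformin without FK506 (x axis, Metformin against Control) and with FK506 (y axis, Metformin+FK506 against FK506) for the 80 genes tested, all (left) and in the central range (right). Marker shape gives the complex and colour the interaction; the spread along x (SD 0.25 without Cox6a2) is wider than along y (0.11), and Cox6a2 lies near the dashed line of equal change.

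Genes that serve the chain without being members moved in part with it. With FK506 all 12 genes of a list for mitochondrial mass (import, porin, chaperones) were lower, beside 39.6% of all genes, with a median of −0.95, led by Hspe1 (−1.93), a chaperonin of the matrix, and Vdac1 (−1.72), the outer membrane porin. Of the subunits outside the rule, Ndufab1 fell by 1.21, Cox4i1 by 0.84 and Cyc1, cytochrome c1, by 0.53. Cox4i2 had 47, 67 and 61 counts in Control and 3, 0 and 6 with FK506. Cycs, cytochrome c, fell by 1.22 with FK506 and by 0.63 with metformin. Of the 14 genes for cytochrome c and coenzyme Q synthesis, 10 were lower, beside 39.6% of all genes, and 3 higher, beside 41.3%, with Coq8a at 1.88.

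Assembly factors build the complexes and are not part of them. With FK506, where 39.6% of all genes were lower and 41.3% higher, 7 of 14 for complex I were lower and 2 higher (median −0.21), 1 of 4 for complex II was lower and 2 higher (median 0.36), 3 of 6 for complex III were lower (median −0.14), 13 of 18 for complex IV were lower and 2 higher (median −0.44), and 4 of 4 for complex V were lower (median −0.42). Sco1, a copper chaperone for complex IV, fell by 2.41 and Cox20, which helps insert its subunit II, rose by 0.97. Of 13 regulators of mitochondrial genes 5 were higher and 5 lower (38.5% each way, near the shares of all genes). Myc fell by 1.32 with metformin, by 2.87 with FK506 and by 3.31 with both, Nrf1 changed by 0.14 with FK506, and Gabpa by −0.05 without passing (adjusted p = 0.41). With FK506 the genes with the NRF1 letters had a median of −0.50 (20 genes) and those with a window and no such letters −0.65 (47 genes tested).

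The methods of the study state that CD4+ cells were isolated on magnetic beads, a step meant to leave out other cell types. Markers of other cell types moved with FK506. Summed FPKM of 10 B cell markers ran from 62.9 to 66.9 for Control, 87.2 to 102 for Metformin, 886 to 926 for FK506 and 427 to 458 for the combination. For 10 myeloid markers it was 4.61 to 4.70, 9.04 to 10.4, 1329 to 1379.8 and 895 to 1020. All 10 of each list were higher than in Control with FK506 and with both drugs, where 41.3% and 42.1% of all genes were. For 6 markers of CD8 T and NK cells, the mean sum was 14.6 for Control, 23.2 for Metformin, 23.7 for FK506 and 24.9 for the combination. Of these, Ncr1 and Klrb1c did not pass the filter. Of the 4 tested, 1 was higher with FK506 (Eomes, 3.25), beside 41.3% of all genes. Another 2 were lower, beside 39.6%, with Cd8b1 lowest (−0.75), and the median was −0.17. The 12 T cell genes summed to 2505 to 2547 in Control, 2318 to 2409.5 with metformin, 2075 to 2168 with FK506 and 2178 to 2269.9 with both. The order of these T cell sums turned with the scale. On TPM the mean was 5270 for Control, 4776 for Metformin, 5201 for FK506 and 5569 for the combination, and after quantile normalization 2282, 2439, 2122 and 2368. By edgeR 8 of the 12 were lower, beside 39.6% of all genes, and 4 higher, beside 41.3%, with FK506, with a median of −0.41. In bulk samples fewer cells of a type and less RNA per cell cannot be told apart, and the part of the other cell types in the falls of the respiratory chain genes was not tested.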

How the data were processed

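Poly(A) RNA of 12 samples was sequenced by the authors, who deposited counts, FPKM and TPM per gene. The submitters' processing notes name bcl2fastq 2.20.0, Trimmomatic, HISAT2 2.1.0, StringTie 2.1.3b and mm10. How reads were counted, and whether by strand, is not given in the sources used here. Genes whose FPKM reached 0.5 in 3 or more samples were tested on the deposited counts with edgeR 4.0.16 (quasi-likelihood test, TMM, 1 factor of 4 groups, all 12 samples) in R 4.3.3, with Benjamini-Hochberg adjustment over all 15197 genes and a threshold of 0.05. The interaction was the metformin change with FK506 minus that without. DESeq2 1.42.0 and limma 3.58.1 on log2(FPKM + 1), log2(FPKM + 0.1), log2(TPM + 1) and quantile-normalized FPKM were alternatives. The TPM alternative was chosen after seeing the data. The deposited FPKM values served for levels between genes and for shares. The fitting script was tested on simulated data.

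The genes and lists were chosen with earlier results of these data known. Genes were named as core or isoform members, or as the widest rise or fall of a complex in a comparison without overlap between groups. Genes of the other lists were named for a large change within their list. Ndufa10, Ndufa12, Ndufb7, Ndufa1, Cox7c, Atp5d, Nrf1, Gabpa, Cyc1 and Cox4i2 fall outside that, as do the genes listed as higher, lower or not passing. All of these were named after their values were seen. Replicate numbers did not pair the samples. The values of 1 gene are not reported here, although it is in the counts.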

Additional observations from a re-analysis of the deposited data

Results flagged for a closer look

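The change with metformin was compared between cultures without and with FK506 by the interaction (edgeR, adjusted p under 0.05). It was higher in 22 of the 80 genes (27.5%), beside 22.5% of all genes, and lower in 9 (11.2%), beside 24.0%. The first share was near that of all genes and the second was below it. With quantile normalization 12 genes were higher and 16 lower, beside 21.5% and 24.1% of all genes. Of the core genes of complex I, the interaction was 0.21 for Ndufs7 and −0.19 for Ndufv2. Of the other genes of complex I, it was 0.90 for Ndufv3, 0.36 for Ndufa4, −0.22 for Ndufa6 and −0.25 for Ndufb11. In complex II it was 0.28 for Sdhc and −0.23 for Sdha, and in complex III 0.53 for Uqcrq and −0.39 for Uqcrh. In complex IV it was 1.58 for Cox7a1, 0.45 for Cox6a1, 0.20 for Cox8a and −0.40 for Cox7a2l. In complex V it was 0.37 for Atp5b and −0.48 for Atp5mpl. All are log2 values, and groups of 3 samples were too small for a search for single samples far from the others.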

How the results depend on the processing

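The counts of genes past the threshold were recomputed under other settings. Shares of all genes under the same setting are in brackets. DESeq2 gave 16 lower with both drugs against FK506 (16.8%). Library size alone gave 5 higher with FK506 (51.0%) and 3 with both drugs against Control (51.1%), and 7 higher with both drugs against metformin (49.4%). limma on log2(FPKM + 0.1) and on log2(FPKM + 1) each gave 3 higher with both drugs against Control (49.3% and 49.4%), 18 lower against FK506 (16.3% and 17.5%) and 5 higher against metformin (47.4% and 47.5%), and the second gave 14 lower interactions (27.3%). TPM gave 14 higher and 45 lower with FK506 (59.4% and 24.0%), and with both drugs 12 higher against Control (59.4%) and 28 higher and 39 lower against metformin (62.4% and 20.3%). Quantile normalization gave 14 higher and 17 lower with metformin (28.4% and 23.1%), 6 higher with FK506 (39.1%), 5 higher with both drugs against Control (40.6%), 5 lower against FK506 (14.1%) and 5 higher against metformin (38.2%), and 12 higher and 16 lower interactions (21.5% and 24.1%). A mean FPKM of at least 1, or no filter, gave 1 higher with both drugs against Control (43.1% and 27.4%), and a fit of only the groups compared gave 5 lower with both against FK506 (12.2%). The cause of these changes was not tested.

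Leaving out 1 sample at a time gave 7 to 9 higher and 35 to 48 lower with metformin. The shares of all genes were then 25.9% to 29.1% and 24.8% to 28.9%. With FK506 it gave 1 to 2 and 67 to 73, beside 39.9% to 42.1% and 38.3% to 40.0% of all genes. With both drugs it gave 0 and 70 to 74, beside 40.6% to 41.9% and 38.3% to 39.6%. It gave 3 to 5 and 6 to 16 with both against FK506, beside 11.6% to 15.2% and 12.6% to 16.5%. Against metformin it gave 2 to 3 and 63 to 67, beside 38.8% to 40.6% and 36.4% to 37.6%. For the interaction it gave 16 to 24 and 6 to 10, beside 20.5% to 22.5% and 21.9% to 24.3%. With the replicate number as a replicate block the counts were 8 and 43, 2 and 71, 0 and 73, 4 and 9, 3 and 67, and 21 and 8 in the same order. The shares of all genes under the block were 27.9% and 26.8%, 41.0% and 39.3%, and 41.7% and 39.3% in the comparisons against Control. For the other 3 they were 14.4% and 14.1%, 39.8% and 37.5%, and 21.5% and 23.2%. The deviations of same-numbered samples had correlations of −0.069 to 0.048, so the samples share only a number.

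Of the 37 genes recomputed singly, those below turned direction. With library size alone Ndufa4 was 0.14, Ndufs8 0.02, Ndufv1 0.07 and Cox6b1 0.07 with FK506, and Ndufs1 0.15, Ndufs7 0.04, Sdha 0.09 and Cox6b1 0.11 with both drugs against metformin. With log2(FPKM + 0.1) Ndufv1 and Cox6b1 were both 0.06 with FK506, and Ndufs1 0.12 and Sdha 0.07 with both against metformin, where log2(FPKM + 1) gave 0.06, 0.06, 0.11 and 0.07. On TPM with FK506 Ndufa4 was 0.36, Ndufs3 0.05, Ndufs8 0.23, Ndufv1 0.30, Sdhc 0.09, Sdhd 0.08, Uqcrc1 0.04, Cox6b1 0.30 and Atp5g3 0.01. On TPM with both drugs Ndufa4 was 0.33, Ndufs8 0.17, Ndufv1 0.22, Sdhc 0.13 and Cox6b1 0.16 against Control. Against metformin they were Ndufs1 0.43, Ndufs3 0.19, Ndufs7 0.19, Ndufs8 0.33, Ndufv1 0.40, Sdha 0.39, Sdhc 0.40, Sdhd 0.19, Uqcrc1 0.14, Cox6a1 0.26, Cox6b1 0.41 and Atp5g3 0.17. Quantile normalization gave Ndufa4 0.25 and Cox6b1 0.21 with FK506, Ndufa4 0.28 and Cox6b1 0.17 with both drugs, Cox7a2l 0.11 for both against FK506, and Sdha 0.08, Cox6a1 0.09 and Cox6b1 0.24 against metformin.

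The log2 ratios of summed levels also moved with the scale. Leaving out a sample moved each by less than its spread between replicates, but the ratio of complex III with metformin then ran from −0.0038 to 0.03, and those of complexes I to V for both drugs against FK506 from −0.08 to −0.02, −0.08 to −0.03, −0.11 to −0.03, −0.09 to −0.04 and −0.12 to −0.05. For complexes I to V on TPM they were −0.16, 0.15, −0.25, −0.30 and −0.34 with FK506, −0.16, −0.10, −0.04, −0.09 and −0.23 with metformin, −0.19, 0.13, −0.29, −0.34 and −0.39 with both, and −0.03, 0.22, −0.24, −0.25 and −0.16 for both against metformin. On quantile-normalized FPKM they were −0.44, −0.41 and −0.43 for complexes III to V with FK506. With metformin they were −0.0025, 0.06, 0.13, 0.10 and −0.03, with both −0.40, −0.06, −0.42, −0.39 and −0.43, and for both against FK506 0.003, 0.01, 0.02, 0.02 and 0.00081. For both against metformin complexes I, IV and V were −0.40, −0.49 and −0.40. Counts were lowest for Cox6a2, Cox6b2, Cox7a1 and the 4 genes that were not tested, and Ndufb4b and Ndufb4c also had few, so these are the least precise.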

Other observations

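For Sco1, Vdac1 and Ndufab1, which serve the chain or belong to it outside the rule, the metformin change was also smaller in the presence of FK506. Sco1, the copper chaperone, had 66.7, 63.2 and 65.0 scaled CPM in Control, 24.8, 25.8 and 26.6 with metformin, 13.1, 12.1 and 11.5 with FK506, and 13.4, 13.9 and 13.6 with both. It fell by 1.33 with metformin against Control, and with FK506 present the metformin change was 0.15 ± 0.0614 without passing (adjusted p = 0.0685, edgeR), with an interaction of 1.49 ± 0.0834 (adjusted p = 4.93e-10). Vdac1 fell by 0.89 without FK506 and was 0.01 with it, and Ndufab1 fell by 0.53 and was −0.01, with interactions of 0.90 ± 0.0595 and 0.52 ± 0.0891. Of the 12 genes for mitochondrial mass, 7 were lower with metformin, beside 27.4% of all genes, with a median of −0.19 beside 0.011 over all genes. With FK506 present 1 was lower, beside 15.0% of all genes, and 2 were higher, beside 15.6%.

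Coq8a, a kinase-like protein of coenzyme Q synthesis, went against the chain. It had 9.15, 9.49 and 9.87 scaled CPM in Control, up to 15.4 with metformin, 33.5, 37.4 and 34.4 with FK506, and 22.1, 21.8 and 21.6 with both, with no overlap between the 4 groups. It was higher with metformin alone (0.64 ± 0.0712) and lower with metformin in the presence of FK506 (−0.69 ± 0.0658), with an interaction of −1.32 ± 0.0969 (edgeR, adjusted p = 1.32e-08). The B cell markers, which were higher with FK506 than in Control, were also lower with metformin added to FK506 than with FK506 alone, in 10 of 10, beside 15.0% of all genes, with a median of −0.99, and their part in the values of Coq8a was not tested. Ppargc1b, a coactivator of mitochondrial genes, rose by 0.56 with metformin, 0.92 with FK506 and 1.13 with both.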
